A study of Mus musculus with 6 samples.

Results

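The nuclear genes of the mitochondrial respiratory chain and ATP synthase were examined in preSC cells, a mouse line that the labels give as a precursor of small cell lung cancer, after knockdown of Crebbp, which encodes a histone acetyltransferase. Members were chosen by a rule on symbols, with earlier results of these data known. It took all genes whose name begins with Ndufa, Ndufb, Ndufc, Ndufs, Ndufv, Uqcr, Cox4 to Cox8 or Atp5. It also took Sdha, Sdhb, Sdhc and Sdhd, and it left out symbols with -ps. The rule matched 90 of 23284 genes, of which 87 passed the filter on low counts, beside 13390 genes in all. By name they comprised 38 subunits of complex I, 4 of complex II, 8 of complex III, 17 of complex IV and 15 of complex V, the ATP synthase. A further 4 were complex I assembly factors (Ndufaf1 to Ndufaf4), and 4 were matched by name without being subunits (Cox4nb, Cox7a2l, Atp5s and Atp5sl). Messenger RNA of 6 libraries was sequenced, 1 per vector except for the empty vector. The empty pLKO.1-TRC vector (shEmpty) was carried by control replicates 1 and 2, and a hairpin without target (shNS) by control replicate 3. The other 3 libraries each carried another lentiviral hairpin against Crebbp, called hairpins 1, 2 and 5. All libraries thus came from 1 cell line that carried a lentiviral vector. The labels do not say that libraries came from separate cultures, and p-values therefore reflect only library-to-library spread, which may be technical.

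The respiratory chain passes electrons from NADH (complex I) and succinate (complex II) through complex III to complex IV, which reduces oxygen. The protons pumped on the way drive ATP synthesis by complex V. Most subunits are encoded in the nucleus and the rest in mitochondrial DNA, and the nuclear genes are known targets of the transcription factors NRF1, GABP (an ETS factor), YY1 and the oestrogen-related receptors. The files held 0 mitochondrially encoded genes, so that only the nuclear side was measured.

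Gene reads ranged from 13622000 to 19805000 per library. Crebbp, the targeted gene, measured 66.2, 69.6 and 69.4 CPM (reads scaled to a common library size and normalized for composition) in control replicates 1 to 3 and 46.2, 58.3 and 48.9 CPM with hairpins 1, 2 and 5. All hairpin libraries were below all controls, least so with hairpin 2, and the pooled test of hairpins against controls gave an adjusted p of 0.10 in edgeR, 0.016 in DESeq2 and 0.015 in limma-voom. The summed neuroendocrine markers were high in every library (5577 to 7835 CPM over 8 genes), while endothelial (4 genes), immune (5) and alveolar (3) markers each summed to at most 6.95 CPM. Of 5 fibroblast markers, summing to 12.9 to 63.2 CPM, Col3a1 had 0 reads in every library. The 4 epithelial markers summed to 2235 to 2804 CPM in controls, against 1061 to 1520 CPM with hairpins. Whether this difference had a part in the values below was not tested. In bulk RNA, fewer cells of a type and less RNA per cell cannot be told apart.

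Upstream sequences were available from RefSeq (GRCm38.p6, whereas the reads were aligned to mm9) for 74 of the 90 members. Exact matches on either strand were sought in the 250 bases before and 50 bases after each start. The NRF1 core GCATGCGC occurred in 14.9% of members and 3.05% of all 27025 genes of the table, and the ETS core CCGGAAG in 23.0% and 9.93%. The YY1 core AAGATGGC was found in 14.9% and 3.19%, and the ERR core AAGGTCA in 10.8% and 5.38%. The cAMP response element TGACGTCA is a site of the CREB factors that bind CBP. It was found in only 4 of the 74 members (5.41%) and in 2.03% of all genes of the table. These are descriptions of letters, not of binding. Upstream sequences are shown for Cox6a1, one of the most abundant complex IV genes, which holds both an NRF1 and an ETS core, and for Ndufaf1 and Ndufaf3, the members with the smallest p in the pooled comparison. Each is the 250 bases before the start, on the minus strand, at chr5:115348959-115349208, chr2:119662835-119663084 and chr9:108567437-108567686, with motif matches in capitals.
Cox6a1: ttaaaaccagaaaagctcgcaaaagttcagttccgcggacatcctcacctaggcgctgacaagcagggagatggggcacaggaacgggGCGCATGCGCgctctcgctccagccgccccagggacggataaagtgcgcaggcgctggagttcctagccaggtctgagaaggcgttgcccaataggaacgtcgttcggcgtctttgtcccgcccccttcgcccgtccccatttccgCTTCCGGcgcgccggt
Ndufaf1: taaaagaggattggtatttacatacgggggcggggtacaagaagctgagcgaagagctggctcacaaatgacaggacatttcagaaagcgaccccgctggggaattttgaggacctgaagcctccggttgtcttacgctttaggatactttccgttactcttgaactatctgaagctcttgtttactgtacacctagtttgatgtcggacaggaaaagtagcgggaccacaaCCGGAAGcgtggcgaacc
Ndufaf3: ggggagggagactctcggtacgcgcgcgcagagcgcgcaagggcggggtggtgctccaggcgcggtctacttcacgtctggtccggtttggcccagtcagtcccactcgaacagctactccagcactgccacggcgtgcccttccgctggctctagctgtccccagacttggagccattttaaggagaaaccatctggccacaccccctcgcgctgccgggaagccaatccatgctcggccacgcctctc
In Cox6a1 the capitals mark overlapping NRF1 cores, starting 162 and 160 bases before the start, and an ETS core 16 bases before it. In Ndufaf1 they mark an ETS core 18 bases before the start. No letters of these 5 motifs were found in the stretch of Ndufaf3. The first bases after the given start lay in an annotated transcript of Cox6a1, but in none of Ndufaf1 or Ndufaf3. Where the start lies is therefore less certain for Ndufaf1 and Ndufaf3.

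The members were abundant transcripts. Their median level in controls was 111 CPM, 54 of the 90 exceeded 100 CPM, and together they took 1.30% to 1.40% of gene reads in controls and 1.38%, 1.504% and 1.36% with hairpins 1, 2 and 5. Atp5b, the catalytic beta subunit of ATP synthase, was the most abundant per read, with 1374, 1296 and 1188 CPM in controls, against 1536, 1237 and 1358 CPM with hairpins 1, 2 and 5. These ranges overlapped. Per kilobase of transcript, mean control levels were 671 CPM for Atp5b, 798 for the small subunit Atp5e, 698 for Cox4i1 and 631 for Cox6a1 (complex IV), 460 for Uqcrq (complex III), 317 for Ndufa4 and 116 for Sdha, the flavoprotein of complex II. Ndufa4 is counted by its name in complex I throughout, although its protein is found in complex IV. Length here was the median over protein-coding transcripts, with 504 bases for Uqcrq and 1811 for Sdha. Their longest principal transcripts have 1521 and 2900 bases, by which their levels per kilobase would be lower. Ndufs5 was the lowest subunit outside the tissue isoforms, at 2.57 to 4.27 CPM over the 6 libraries. Reads that align to several places were set aside by the counting, so members with near-identical copies may be counted low; this was not tested.

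Across the 3 hairpins together, no member passed the test. The edgeR test called 0 of 87 members higher and 0 lower, beside 0.276% and 0.978% of all genes tested. By unadjusted p under 0.05, 6 members passed (Atp5f1, Cox6a2, Cox6b2, Ndufaf1, Ndufaf3 and Ndufaf4), while 16.5% of all genes did. The log2 fold change was above 0 for 62 members and below 0 for 25, beside 7127 and 6263 of all genes. Beside 0.01 for all genes, the members had a median of 0.06. Without hairpin 2 that median was -0.00. Fold changes were small: 80 of 87 were within 0.25 of 0 on the log2 scale, with a median standard error (SE) of 0.10. DESeq2 called 0 members higher and 1 lower (2.22% and 3.23% of all genes), as did limma-voom with quality weights (2.09% and 3.09%). That gene was Ndufaf3 with both. All 3 hairpin libraries lay above all controls for 7 members, or 8.05%, beside 11.4% of all genes. They lay below all controls for 3 members, or 3.45%, beside 11.0%.

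Ndufaf3, a factor for early assembly of complex I, had the smallest p. It measured 34.8, 37.1 and 33.8 CPM in controls, against 24.8, 25.6 and 26.7 CPM with hairpins 1, 2 and 5. The groups did not overlap, as in this direction for 11.0% of all genes, and the hairpin libraries lay close together. Its log2 fold change was -0.46 (SE 0.09), with an adjusted p of 0.064 in edgeR, 0.0056 in DESeq2 and 0.026 in limma-voom. The fold change ranged from -0.50 to -0.42 over all alternatives, and the adjusted p in edgeR from 0.060 to 0.35. Ndufaf3 shares exon sequence on the opposite strand with Impdh2, which measured 165, 165 and 150 CPM in controls, against 180, 178 and 151 CPM with hairpins. Without a stated strand setting, reads of the overlap cannot be told apart.

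None of the other assembly factors passed the pooled test. Ndufaf1, which acts on the membrane arm of complex I, measured 12.9, 13.2 and 13.7 CPM in controls, against 16.2, 19.9 and 17.6 CPM with hairpins 1, 2 and 5. The groups did not overlap, as in this direction for 11.4% of all genes. The log2 fold change of 0.43 (SE 0.13) had an adjusted p of 0.15 (edgeR). Ndufaf4 measured 38.8, 39.4 and 43.6 CPM in controls, against 48.9, 48.8 and 45.2 CPM with hairpins (log2 fold change 0.23, SE 0.09, adjusted p 0.25, edgeR). Ndufaf2 was outside the control range with hairpin 2 alone: 22.6, 22.1 and 28.1 CPM in controls, against 22.5, 39.3 and 25.9 CPM with hairpins 1, 2 and 5 (pooled log2 fold change 0.27, adjusted p 0.58, edgeR).

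**Figure D1:**
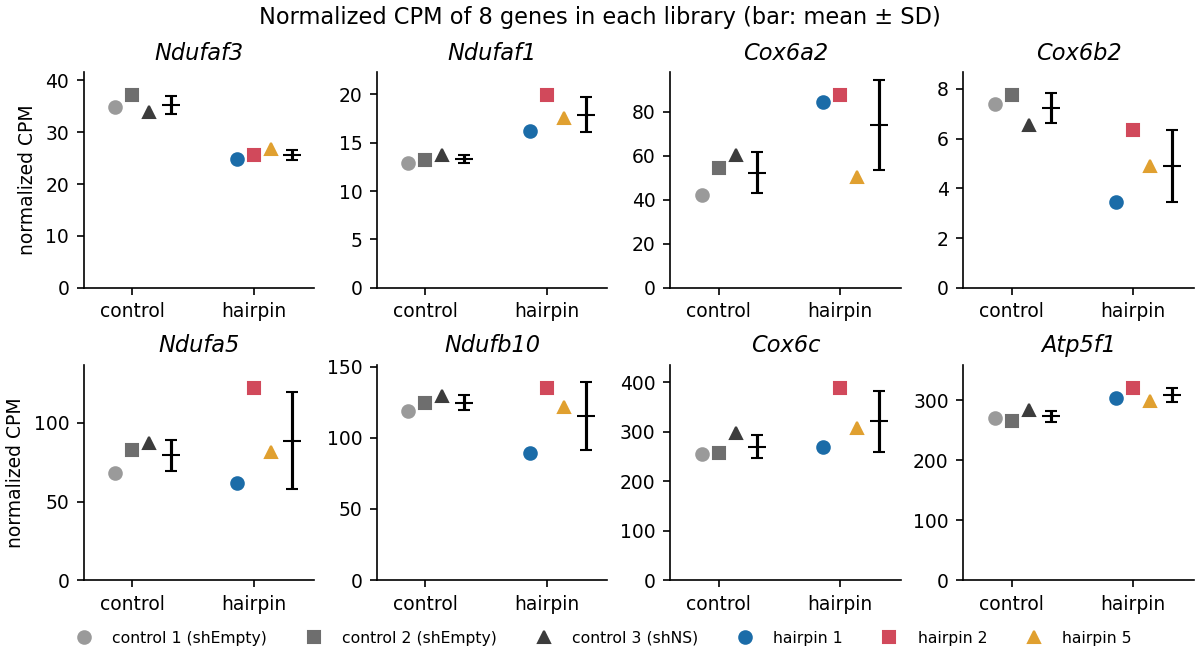
Normalized CPM (y axis, from 0) of 8 genes in the 3 control and 3 hairpin libraries; each symbol is 1 library and bars are the mean ± SD (n = 3). The hairpin libraries lie below the controls for Ndufaf3 and Cox6b2 and above them for Ndufaf1 and Atp5f1, while Ndufa5 and Ndufb10 differ between hairpins.

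Among the subunits of the 5 complexes, few values separated the groups. In complex I, 29 of 38 members had a positive log2 fold change (median 0.08), beside 7127 of 13390 genes. Against controls, 16, 33 and 19 of the 38 were positive with hairpins 1, 2 and 5. Ndufa9, Ndufa10 and Ndufb5 lay above all controls with each hairpin, as did 11.4% of all genes. Ndufa11, a membrane subunit with one of the 2 smallest p values of complex I, measured 84.6, 97.0 and 98.0 CPM in controls, against 75.5, 85.9 and 84.0 CPM with hairpins, with overlapping ranges (adjusted p 0.38, edgeR). In complex II the 4 log2 fold changes had a median of 0.01. Sdhb, the iron-sulfur subunit, measured 74.2, 74.5 and 81.6 CPM in controls, against 84.1, 79.7 and 77.2 CPM with hairpins. In complex III, Uqcrb, a small subunit near the ubiquinone site, measured 110, 105 and 113 CPM in controls, against 116, 129 and 127 CPM with hairpins, which did not overlap (log2 fold change 0.18, SE 0.08, adjusted p 0.30, edgeR). In complex V, Atp5f1, a subunit of the peripheral stalk, measured 270, 266 and 284 CPM in controls, against 304, 321 and 299 CPM with hairpins, again without overlap (log2 fold change 0.17, SE 0.07, adjusted p 0.29, edgeR).

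Complex IV has tissue and hypoxia isoforms, and these varied most. Cox6a2, the heart and skeletal muscle form, measured 42.1, 54.4 and 60.3 CPM in controls, against 84.3, 87.4 and 50.3 CPM with hairpins 1, 2 and 5. It was high with hairpins 1 and 2 and within the control range with hairpin 5. Cox6a1, the common form, measured 338, 363 and 380 CPM in controls, against 375, 404 and 373 CPM with hairpins. Cox6a2 shares exon sequence on the opposite strand with Itgad, which measured at most 0.81 CPM in any library. Cox6b2, the testis form of Cox6b, was below controls with each hairpin: 7.41, 7.74 and 6.57 CPM in controls, against 3.45, 6.34 and 4.90 CPM with hairpins (log2 fold change -0.56, SE 0.24, adjusted p 0.30, edgeR). Cox4i2, the lung and hypoxia form of Cox4, had 17, 16 and 12 reads in controls and 1, 17 and 12 reads with hairpins 1, 2 and 5. For hairpin 1, the ratio of its share of gene reads to that of the controls was 0.081, with an exact 95% interval of 0.0020 to 0.48 that covers counting error only. Cox7a1, a muscle form, and Ndufa4l2, a hypoxia-induced relative of Ndufa4, stayed between 7 and 20 reads in every library. Cox7b2 had 0 to 2 reads, and Cox8b and Cox8c had 0 reads in all libraries, against a limit of 3 reads, or 0.15 to 0.22 CPM, that a count of 0 allows. These 3 genes were not tested. The 3 muscle markers summed to 1.25 to 4.27 CPM.

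Each hairpin was then set against the 3 controls in a fit in which the spread came from the controls alone (2 residual degrees of freedom). On simulated counts this fit called more unchanged genes than its threshold allows, so its calls are less certain than those of the pooled comparison. With hairpin 1, 1 member was higher (Cox6a2) and 4 were lower (Cox4i2, Cox6b2, Ndufaf3 and Ndufb10), beside 8.61% and 9.32% of all genes. Ndufb10, a subunit of the membrane arm of complex I, measured 119, 125 and 130 CPM in controls, against 89.1, 135 and 121 CPM with hairpins 1, 2 and 5. It was below the controls with hairpin 1 alone (log2 fold change -0.48, SE 0.09, adjusted p 0.0095, edgeR). DESeq2 called 1 member higher and 1 lower, Ndufb10, beside 4.0% and 5.79% of all genes. Without control replicate 2 all 5 edgeR calls with hairpin 1 were lost (0 higher and 0 lower, beside 2.77% and 4.03% of all genes). Without control replicate 1 there were 2 higher and 11 lower (14.2% and 14.7%), and without control replicate 3 there were 4 higher and 6 lower (15.0% and 16.0%).

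With hairpin 5, 0 members were higher and 0 lower in edgeR, beside 0.866% and 1.88% of all genes; 9 members (10.3%) passed an unadjusted p under 0.05, as did 19.2% of all genes. DESeq2 called 0 in either direction (0.478% and 1.73% of all genes). The edgeR counts were 0 higher and 8 lower without control replicate 1, beside 5.4% and 7.16% of all genes. They were 0 and 0 without control replicate 2 (0.0739% and 0.295%), and 1 and 2 without control replicate 3 (5.66% and 8.6%).

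With hairpin 2, 17 members were higher, or 19.5%, beside 8.48% of all genes, and Ndufaf3 alone was lower, beside 9.03%. The 17 comprised 7 of 38 in complex I (Ndufa3, Ndufa4, Ndufa5, Ndufb2, Ndufb3, Ndufc1 and Ndufc2) and 0 of 4 in complex II. They included Uqcr10 alone of 8 in complex III, 5 of 14 tested in complex IV (Cox6a2, Cox6c, Cox7a2, Cox7b and Cox7c) and 2 of 15 in complex V (Atp5j and Atp5j2). Ndufaf1 and Ndufaf2 were the others. Cox6c, a small subunit of complex IV, measured 255, 257 and 297 CPM in controls, against 268, 389 and 307 CPM with hairpins 1, 2 and 5 (hairpin 2: log2 fold change 0.53, SE 0.10, adjusted p 0.0095, edgeR). Ndufa5, in the hydrophilic arm of complex I, measured 68.4, 82.6 and 87.1 CPM in controls, against 62.1, 122 and 81.3 CPM with hairpins 1, 2 and 5 (hairpin 2: log2 fold change 0.63, SE 0.13, adjusted p 0.012, edgeR). Both had their highest value with hairpin 2, and Cox6c was also above the controls with hairpin 5. The count of higher members moved with single controls: it was 21, 1 and 34 without control replicate 1, 2 and 3, beside 12.2%, 3.19% and 16.8% of all genes. The count of lower members was then 1, 0 and 2, beside 12.8%, 3.68% and 16.8%. DESeq2 called 9 higher and 0 lower, beside 3.98% and 5.93% of all genes.

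**Figure D2:**
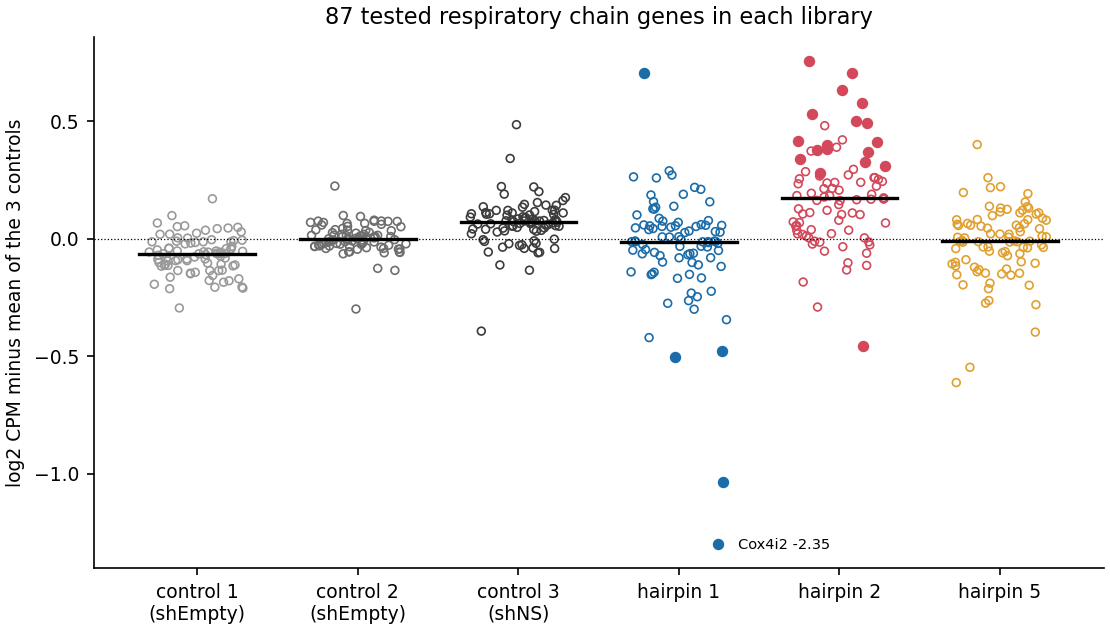
Log2 CPM of the 87 tested members minus the control mean (y axis) in each library; each circle is 1 gene, filled where the single-hairpin fit called it, and black lines are medians. The hairpin 2 library has most of its circles above 0, and so does control replicate 3. Cox4i2 with hairpin 1 is drawn at the lower edge with its value.

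Averaged over the 87 members, log2 CPM with hairpins 1, 2 and 5 differed from the control mean by -0.05, 0.18 and -0.02. Each control differed from the mean of the other 2 by -0.10, 0.00 and 0.10. Hairpin 2 was the only hairpin library whose mean lay beyond these differences among controls. It had 73 of 87 members above the control mean, beside 6729 of 13390 genes with a positive log2 fold change. Against the mean of the other 2 controls, control replicates 3 and 2 had 69 and 43 members above, and control replicate 1 had 72 below. The count of 73 was thus close to the 69 of control replicate 3. These comparisons are not quite alike, since each hairpin was set against 3 controls and each control against the other 2. Control replicate 3 also carried another vector (shNS) than control replicates 1 and 2 (shEmpty). The mean difference with hairpin 2 was 0.14, 0.17 and 0.21 without control replicate 1, 2 and 3. By complex, the mean difference with hairpin 2 was 0.20 in complex I, 0.01 in complex II, 0.16 in complex III, 0.23 in complex IV (the 10 common isoforms), 0.14 in complex V and 0.27 over the 4 assembly factors. With hairpin 1 these means lay between -0.03 and 0.02, and with hairpin 5 between -0.07 and 0.07. Over all 14 tested complex IV members, which include Cox4i2 and the other low isoforms, the means were -0.20, 0.25 and -0.10 with hairpins 1, 2 and 5.

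**Figure D3:**
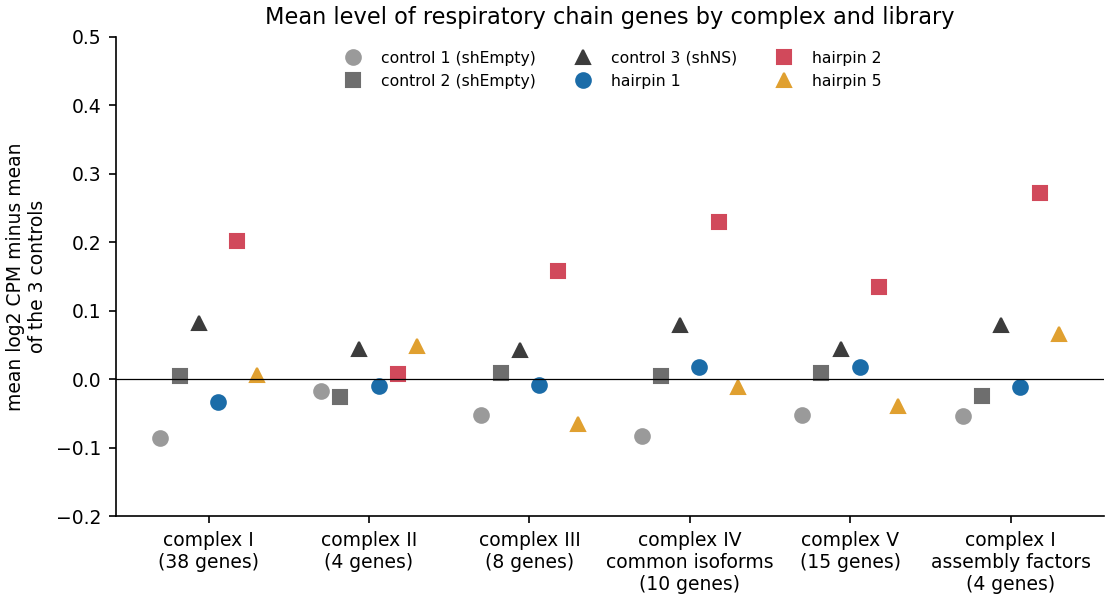
Mean log2 CPM of each complex minus the control mean (y axis), 1 symbol per library. Hairpin 2 lies above all other libraries in every group but complex II, where its value is 0.01.

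Most members are short: 69 of the 90 had a transcript of at most 1000 bases (median over protein-coding transcripts in GENCODE vM21). Other genes of that length were also higher with hairpin 2. The median log2 ratio to controls of other tested genes was 0.12 for 468 genes up to 600 bases, 0.07 for 1810 genes of 600 to 1000 bases and -0.05 for 5711 genes over 2500 bases. Members had 0.21 up to 600 bases (31 genes) and 0.18 from 600 to 1000 bases (35 genes). Among members up to 600 bases, control replicates 1 and 3 lay at -0.09 and 0.08. The share of reads outside annotated genes was 16.8% to 17.0% in controls and 14.8%, 18.1% and 15.8% with hairpins 1, 2 and 5.

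With a per-library correction for transcript length and GC content, the mean difference of the members with hairpin 2 fell to 0.03 and 11 were called higher, beside 7.29% of all genes. With hairpin 1 it rose to 0.08, with 3 called higher, beside 10.7%. A second definition of length, the longest principal transcript of each gene, was tried after these results had been seen and gave other values. The mean difference with hairpin 2 was then -0.02, with 9 called higher (7.46% of all genes), and that with hairpin 1 was 0.19, with 11 called higher (11.6% of all genes). By that definition other tested genes had a median of 0.26 up to 600 bases and 0.15 from 600 to 1000 bases with hairpin 2. Members had 0.17 up to 600 bases (19 genes) and 0.24 from 600 to 1000 bases (30 genes). They were thus below other genes in the shortest group by this definition and above them by the first. The higher mean with hairpin 2 was thus not kept under the correction by either definition, and the order of hairpins 1 and 2 depended on it. The correction was fitted over all tested genes with a known length, members among them. It therefore removes any shift shared by genes of like length and GC content, whatever its source. The cause of the shift was not tested.

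**Figure D4:**
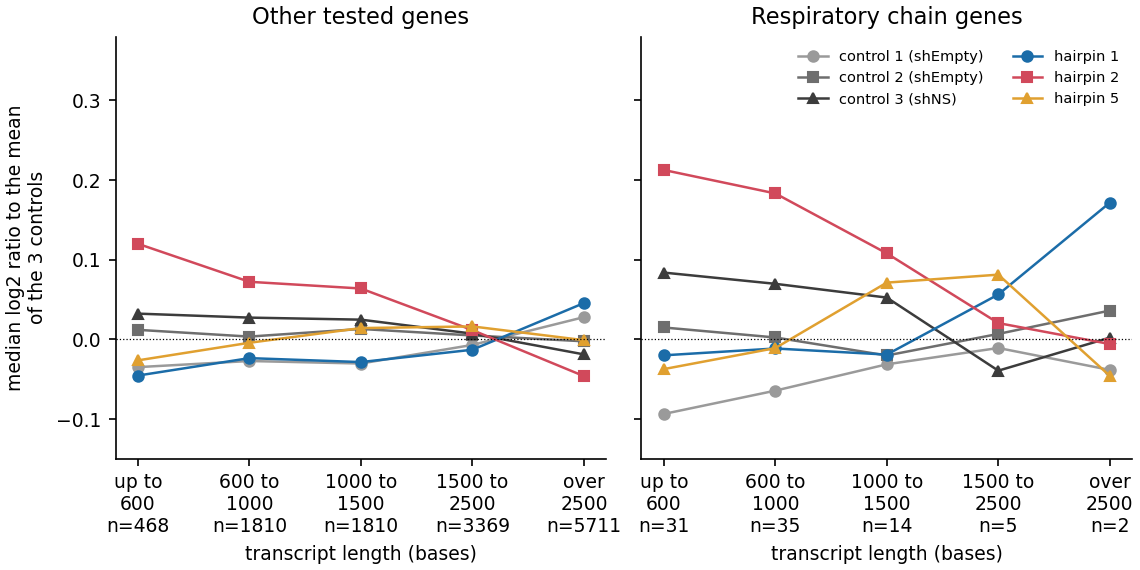
Median log2 difference from the control mean (y axis) by transcript length (x axis, bases, first definition) for other tested genes and for the members, 1 line per library with the number of genes under each bin. With hairpin 2 both panels fall from left to right; bins of members over 1000 bases hold 14 genes or fewer.

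Hairpins were also compared with each other in the same fit, a comparison added after the data were seen. Hairpin 2 against hairpin 1 gave 10 members higher and 0 lower, beside 7.53% and 7.03% of all genes. Hairpin 2 against hairpin 5 gave 0 higher and 0 lower in edgeR, beside 1.55% and 1.43%, with 26 members (29.9%) at an unadjusted p under 0.05, as were 21.7% of all genes. Hairpin 1 against hairpin 5 gave 0 higher and 1 lower, Ndufb10, beside 3.44% and 3.06%.

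Related pathways were described by the same counts. The pooled edgeR test called 0 genes in either direction among 25 tested assembly factors outside the rule, 22 electron and ATP carriers, 20 genes of the tricarboxylic acid cycle and pyruvate dehydrogenase, 26 regulators of mitochondrial biogenesis, 76 mitochondrial ribosomal proteins and 77 cytosolic ribosomal proteins. With hairpin 2, 10 mitochondrial ribosomal protein genes (13.2%) were higher and 1 lower (median log2 fold change 0.16), and 35 cytosolic ribosomal protein genes (45.5%) were higher and 0 lower (median 0.25), beside 8.48% higher and 9.03% lower of all genes. The tricarboxylic acid cycle list, with a median transcript of 1603 bases, had a median of -0.05 with hairpin 2. That of the regulators (1592 bases) was -0.07. The median was 0.10 for the assembly factors outside the rule (1980 bases) and 0.08 for the carriers (1390 bases). Of the regulators, Ppargc1a, a coactivator of mitochondrial biogenesis, measured 9.25, 9.51 and 12.3 CPM in controls, against 9.11, 12.6 and 7.08 CPM with hairpins 1, 2 and 5. Nrf1 measured 57.6, 59.8 and 57.4 CPM in controls, against 55.4, 52.1 and 58.9 CPM with hairpins. Gabpa, which shares exon sequence with Atp5j on the opposite strand, measured 93.2, 80.1 and 77.7 CPM in controls, against 98.8, 74.4 and 91.8 CPM with hairpins. Tfam, which packages mitochondrial DNA, measured 86.5, 86.6 and 96.7 CPM in controls, against 100.1, 95.1 and 103 CPM with hairpins. Ppargc1b had few reads: 14, 25 and 23 in controls, against 15, 23 and 2 with hairpins 1, 2 and 5. Esrra measured 21.4, 27.2 and 28.9 CPM in controls, against 32.3, 26.9 and 21.0 CPM with hairpins. Yy1 measured 119, 105 and 99.8 CPM in controls, against 114, 97.2 and 119 CPM with hairpins. Control and hairpin ranges overlapped for each of these regulators.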

How the data were processed

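Raw counts of reads per gene, not normalized by the authors, were deposited as 1 file for each of 6 libraries. Poly(A) RNA was isolated with oligo dT beads out of 500 ng total RNA, per the labels. Tools in the submitters' processing notes are TopHat2 2.0.12 and HTSeq 0.6.1, after bcl2fastq 1.8.2, with mm9 as the build; for annotation and strand setting the sources used here give nothing. The 5 HTSeq summary rows (24.8% to 28.9% of counts) were left out. Members and lists were chosen with earlier results of these data known.

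The test on counts was that of edgeR 4.0.16 (R 4.3.3; TMM, filterByExpr, robust quasi-likelihood test) over 13390 genes, with Benjamini-Hochberg adjustment and a threshold of 0.05. Single hairpins were tested in a fit with 4 groups. Both fits were tested on simulated data, with robust estimation. The pooled fit recovered known changes with few false calls. The single-hairpin fit made more false calls than its threshold allows. Log2 CPM used a prior count of 2. Alternatives were DESeq2 1.42.0, limma 3.58.1 (voom), other normalizations and filters, leaving out each library, and a loess correction for length and GC content. Length was first defined as the median over a gene's protein-coding transcripts. Since some values looked implausible, the longest principal transcript was tried after results had been seen; levels per kilobase and length groups use the first definition, and both corrections are reported. Comparisons between hairpins and non-robust estimation were also added after seeing the data. Of the members, the text names by rule those called, the 2 with the smallest p and the 2 most abundant per kilobase in each complex, the extreme ratios of each hairpin, the isoforms and the genes that are no subunits; not all are discussed. Ndufa5, Ndufb10, Cox6c, Ndufs5, Ndufa9, Ndufa10, Ndufb5 and further members called with a single hairpin were named after their values were seen. No 2 libraries of a group were alike within sampling noise (chi-square of 4.25 to 29.9 per degree of freedom).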

Additional observations from a re-analysis of the deposited data

Results flagged for a closer look

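Each result here is a member whose change differed between 2 hairpins in the edgeR fit with 4 groups, by a test of the difference itself, in a comparison added after the data were seen. Each hairpin is 1 library. On simulated counts this fit made more false calls than its threshold allows. Values were higher with hairpin 2 than with hairpin 1 for 10 members (beside 7.53% of all genes). On the log2 scale the difference was 0.98 for Ndufa5, 0.81 for Ndufaf2, 0.60 for Ndufb10, 0.54 for Ndufc1, 0.54 for Cox6c, 0.46 for Atp5j2, 0.44 for Atp5d, 0.40 for Uqcr10 and 0.82 for Atp5s. For Cox4i2 it was 3.90, which rests on 1 read with hairpin 1 and 17 with hairpin 2 and depends on the prior count. Ndufb10 was also lower with hairpin 1 than with hairpin 5 (beside 3.06% of all genes), by -0.45.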

How the results depend on the processing

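The pooled count of members stayed at 0 higher under every alternative and at 0 lower except with DESeq2 and limma-voom (1 each, Ndufaf3). Without control replicate 1 or 2, the pooled edgeR test called 0.0% of all genes in either direction. Without control replicate 3 it called 0.0222% higher and 0.332% lower. With so few genes called at all, a count of 0 without a control shows nothing about the members. The median log2 fold change ranged from -0.00 to 0.07 when 1 library was left out. With hairpin 1, members higher (1) numbered 0 without a filter, 3 with the length and GC correction, 11 with its second length definition, and 0 to 4 without single controls; members lower (4) numbered 1 with DESeq2 and 0 to 11 without single controls. With hairpin 2, members higher (17) numbered 11 and 9 with the 2 length corrections, 9 with DESeq2 and 1 to 34 without single controls; members lower (1) numbered 0 among subunits only, 0 with DESeq2 and 0 to 2 without single controls. With hairpin 5 (0 and 0), the counts were 0 to 1 higher and 0 to 8 lower without single controls. The mean log2 ratio moved with the length and GC correction to 0.083, 0.034 and 0.050 for hairpins 1, 2 and 5, and with the second definition, chosen after seeing the data, to 0.185, -0.025 and 0.079. Non-robust estimation, also added, gave the same counts. The count of members higher with hairpin 2 thus depended on the control left out, while the mean log2 ratio over all 87 tested members stayed between 0.144 and 0.213; the mean changed with the length and GC correction. The cause was not tested. Shares of all genes called moved too: from 2.77% to 15.0% higher and 4.03% to 16.0% lower with hairpin 1, from 3.19% to 16.8% higher with hairpin 2 and from 0.295% to 8.6% lower with hairpin 5 without single controls, and 7.44% higher with hairpin 1 without a filter.

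In the pooled edgeR comparison, which called no member, some signs turned. Leaving out 1 library gave log2 fold changes from -0.043 to 0.327 for Atp5s, -0.059 to 0.0037 for Cox4i1, -0.984 to 0.155 for Cox4i2, -0.528 to 0.072 for Cox7a1, -0.065 to 0.238 for Ndufa4l2, -0.0025 to 0.429 for Ndufaf2, -0.036 to 0.070 for Sdha, -0.0039 to 0.210 for Uqcr10, -0.033 to 0.138 for Uqcrh and -0.062 to 0.128 for Uqcrq. With limma-voom the value was -0.061 for Ndufa4l2, 0.0051 for Sdhd and -0.059 for Uqcrq. With the length and GC correction it was 0.0071 for Cox4i1 and 0.0010 for Cox4nb, and with the second definition 0.0205 for Cox4i1. No paired analysis was possible because the groups share only replicate numbers 1 and 2, which for the hairpins are hairpin numbers. Genes of few reads (Cox4i2, Cox7a1, Ndufa4l2, Cox7b2) are limited by depth.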
